A study of Mus musculus with 54 samples.

Results

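The genes described here are 10 that mark astrocytes: Gfap, S100b, Slc1a2, Slc1a3, Glul, Aqp4, Gja1, Gjb6, Agt and Aldh1l1. They were taken by their gene symbol in the annotation of the array platform, whatever their values. Of the 10 genes, 9 had a probe, and together they had 15 of the 25697 probes, in a table that names 16593 genes. Gjb6, which encodes the gap junction protein connexin 30, was not matched to a probe and is not analysed here.

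Astrocytes are glial cells that enfold synapses and cover the walls of brain capillaries with flattened processes, the endfeet. They take up the glutamate that neurons release and convert it to glutamine, they move water and potassium, and they are joined into networks by gap junctions. In the hippocampus and cortex they are told apart from neurons by genes of these tasks, and they raise Gfap in response to injury and, to a lesser degree, with maturation.

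RNA was measured on 54 Illumina mouse beadchips, 28 of them of the lateral entorhinal cortex (LEC) and 26 of the dentate gyrus (DG), each from 1 of 33 male C57BL/6J mice that were housed singly from 1 month of age. Mice of the ACR groups received 500 mg/kg of AICAR, an activator of AMP-activated protein kinase, in saline by intraperitoneal injection every day, control mice (CTR) received saline, and RUN mice received saline and had a running wheel. They were killed after 7, 14 or 28 days, with no AICAR group at 28 days, which gives CTR7, RUN7, ACR7, RUN14, ACR14, CTR28, RUN28 and 2 sets of day 14 controls. CTR14a is the set that goes with RUN14 and CTR14b the set that goes with ACR14. The paper's methods describe no experiment of 28 days, so the injections of CTR28 and RUN28 are not stated there. Each group had 3 arrays per tissue, apart from 2 in DG CTR14a and 4 in LEC CTR28, and per the methods the most pure and concentrated RNA samples were the ones hybridised. The samples were whole dissected tissue, in which fewer astrocytes and less RNA per astrocyte cannot be told apart.

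Values are log2 intensities, standardised on each array and put on 1 scale for both tissues, so that a difference of 1 is 2-fold. A probe was called detected on an array when its detection p-value was 0.02 or less. The probes detected on an array numbered 11495 to 13219, and arrays of 1 group correlated at 0.975 to 0.996. The tissue labels were borne out by C1ql2 and Prox1, genes of dentate granule neurons, which were 4.67 and 3.17 log2 units higher in DG. Some DG arrays stood apart in markers of other cells. As the mean deviation from the DG mean, oligodendrocyte markers were at 0.92 in CTR28 replicate 3 and 0.97 in CTR14b replicate 6, and granule neuron markers at -0.72 and -0.71 in these arrays and at -1.45 in ACR14 replicate 3. Choroid plexus markers were 3.57 to 4.74 above the DG mean in ACR7 replicate 2, ACR14 replicate 3 and CTR14b replicate 5, and at most 1.26 above it on the other DG arrays. Comparisons were tested with limma over all genes detected in at least 1 whole group, and a gene was called at a Benjamini-Hochberg adjusted p under 0.05.

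**Figure D1:**
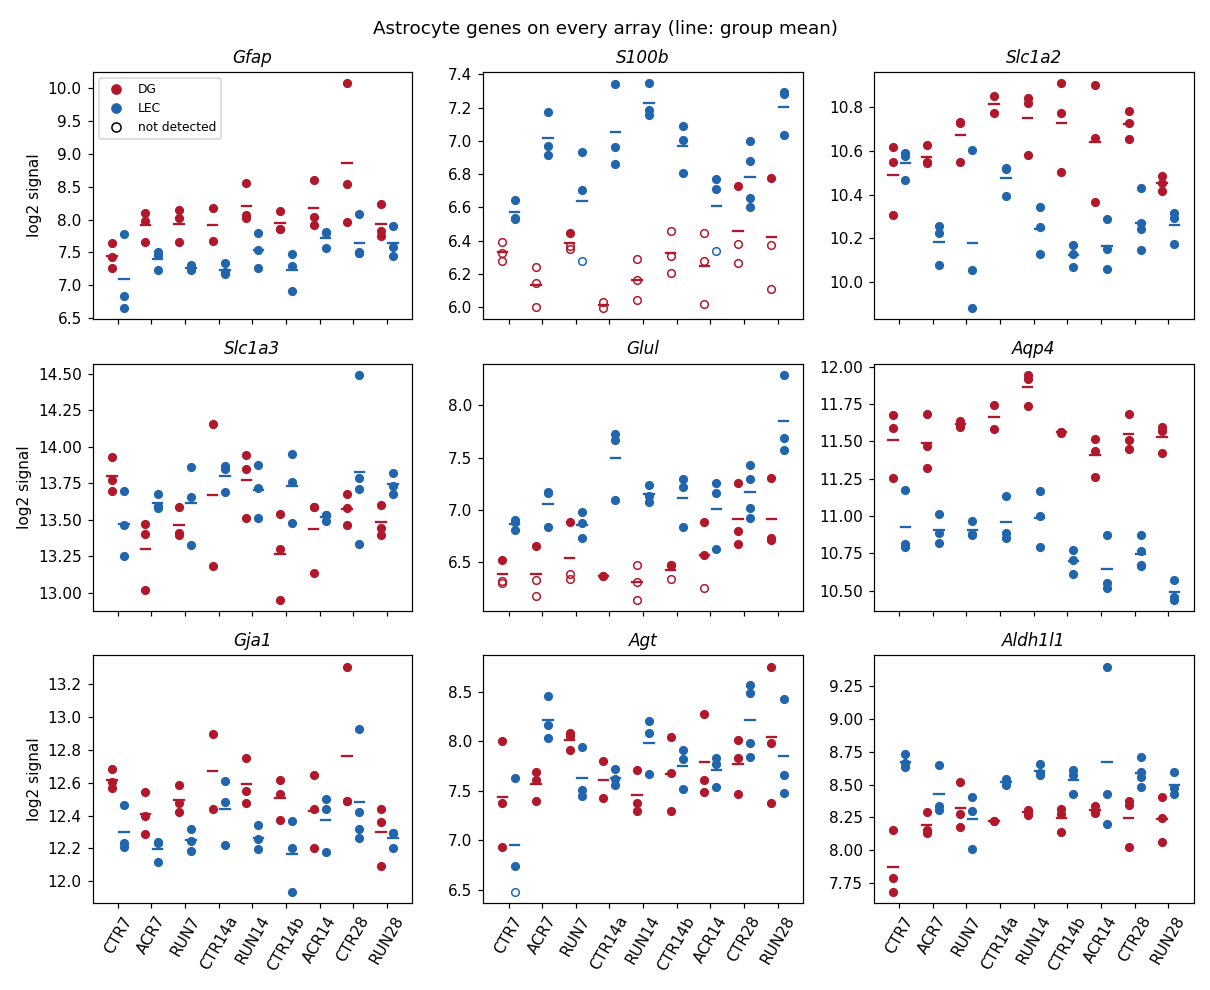
Log2 signal of the 9 genes (y axis, 1 panel per gene) on every DG (red) and LEC (blue) array, by group (x axis), with a line at the group mean and open circles where the probe was not detected. Aqp4 was higher on every DG array than on every LEC array, and Gfap in DG CTR28 reached 10.08 on 1 array.

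The 2 tissues differed in most of these genes, in both directions. Across all conditions Aqp4, Gfap, Slc1a2 and Gja1 were higher in DG, and Glul and Aldh1l1 were higher in LEC. These are 6 of the 8 members detected in a whole group of both tissues, and they passed limma's test with the mouse as a random block, against 68.2% of the 8278 genes detected so (35.7% higher in DG, 32.5% lower) and 69.3% of all 9024 genes tested (36.7% higher, 32.6% lower). The median difference, DG minus LEC, was 0.08 for the 8 genes and 0.01 for the 8278. S100b entered the test through LEC alone, where it is the brighter, and is left out of this count. The same 6 genes passed without the 5 DG arrays that stood apart and in the untreated arrays alone.

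Aqp4 encodes aquaporin-4, the water channel of the endfeet. Its level ran from 11.25 to 11.95 (median 11.58) on the 26 DG arrays and from 10.44 to 11.17 (median 10.82) on the 28 LEC arrays. The ranges did not overlap, as was the case for 0.92% of all genes higher in DG. The difference was 0.77 (95% interval 0.69 to 0.85, a fold of 1.71, limma adjusted p = 7.8e-21), and DG was the higher tissue in all 9 conditions and in 21 of 21 mice with both tissues. Gja1 encodes connexin 43, the main gap junction protein of astrocytes. It ran from 12.09 to 13.31 (median 12.49) in DG and from 11.94 to 12.93 (median 12.26) in LEC, with overlap, and was 0.23 higher in DG (95% interval 0.12 to 0.34, adjusted p = 3.2e-04). Its mean was higher in DG in 9 of 9 conditions, and its value in 17 of 21 mice.

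Gfap encodes glial fibrillary acidic protein, the intermediate filament of astrocytes. It ran from 7.27 to 10.08 (median 8.0) in DG and from 6.65 to 8.08 (median 7.47) in LEC. The ranges overlapped, yet DG was higher in 20 of 21 mice and in 9 of 9 conditions, by 0.29 (RUN28) to 1.22 (CTR28). The difference over all arrays was 0.63 (95% interval 0.43 to 0.82, a fold of 1.54, limma adjusted p = 3.3e-07). S100b, which encodes a calcium-binding protein of astrocytes, was detected more often in LEC. It was detected on 25 of 28 LEC arrays, at 6.28 to 7.35 (median 6.92), and on only 3 of 26 DG arrays, at 5.99 to 6.78 (median 6.28). Most of its DG values are at background, so no size is given for its difference between the tissues.

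The 3 genes of glutamate uptake and conversion did not move together. Slc1a2, the glutamate transporter GLT-1, ran from 10.31 to 10.91 (median 10.64) in DG and from 9.88 to 10.60 (median 10.25) in LEC. It was 0.38 higher in DG (95% interval 0.29 to 0.47, limma adjusted p = 2.6e-10), in 8 of 9 conditions and 19 of 21 mice. The exception was CTR7, where the difference of means was -0.05. A second probe of Slc1a2 gave 0.35 (adjusted p = 1.9e-08 with each probe tested on its own), while a dimmer one gave -0.12 (adjusted p = 0.0076) and the remaining probe was detected on 0 arrays. Slc1a3, the glutamate transporter GLAST, had a difference of -0.14 (adjusted p = 0.065), which turned to 0.04 under quantile normalization and under neqc. Glul, glutamine synthetase, was detected on 14 of 26 DG arrays, at 6.14 to 7.31 over all 26 (median 6.47), and on all 28 LEC arrays, at 6.62 to 8.29 (median 7.15). It was 0.64 lower in DG (95% interval -0.78 to -0.51, adjusted p = 2.9e-11), lower in DG in all 9 conditions and in each of the 21 mice. Part of its DG values are at background, so the size of this difference is uncertain.

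Aldh1l1, a folate enzyme that marks astrocytes throughout the brain, ran from 7.69 to 8.52 (median 8.27) in DG and from 8.01 to 9.40 (median 8.55) in LEC. It was 0.31 lower in DG (95% interval -0.42 to -0.20, limma adjusted p = 2.5e-06), with the other well detected probes at -0.27 and -0.19. DG was higher in 2 of 21 mice and in 1 of 9 conditions, RUN7 (0.09), while CTR7 had the widest gap (-0.80). Agt, angiotensinogen, the precursor of the angiotensin peptides, which astrocytes make in the brain, differed by -0.06 (95% interval -0.26 to 0.13, adjusted p = 0.56). Its tissue difference ran from -0.65 in ACR7 to 0.49 in CTR7.

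**Figure D2:**
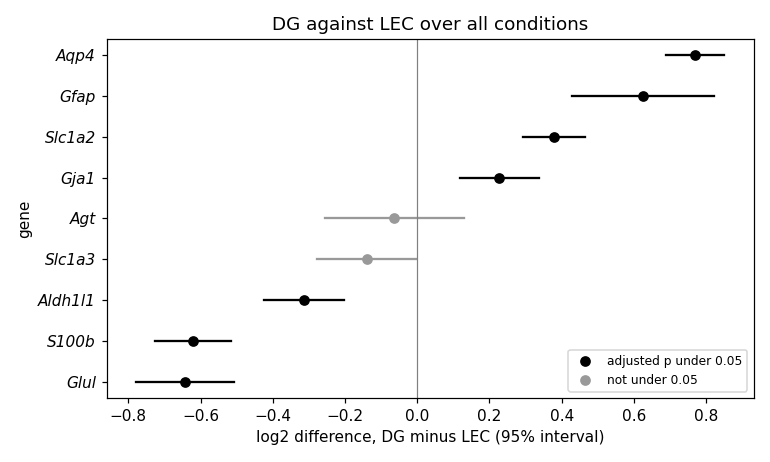
Difference in log2 signal, DG minus LEC (x axis), for the 9 genes (y axis), with the 95% interval of limma's fit over all 54 arrays. Black marks an adjusted p under 0.05, as for Aqp4 at 0.77 and Glul at -0.64, and grey marks Agt and Slc1a3. The point of S100b sets LEC signal against DG values mostly at background, and that of Glul against DG values partly at background.

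Other genes of astrocytes were called in both directions too, against the 36.7% of all genes higher and 32.6% lower in DG given before. In a list of 40 further astrocyte genes, 30 were tested, of which 7 were higher and 13 lower in DG (median -0.13). Of the list, 28 genes were detected in a whole group of DG and 30 in one of LEC. The counts thus include genes that entered through LEC alone, as S100b did. Slc14a1, a urea transporter, was 0.74 higher and Cbs, cystathionine beta-synthase, 0.40 higher in DG. Sparcl1, a secreted protein that promotes synapse formation, had a difference of -0.85, DG minus LEC, and Ndrg2 one of -0.55. Of 16 genes that reactive astrocytes are known to raise, 9 were tested, 7 were higher and 0 lower in DG, led by Serpina3n, a serine protease inhibitor, at 1.98. Of these 16, 9 were detected in a whole group of DG and 8 in one of LEC, so entry through DG alone is part of that count. Of 13 genes of glutamate and glutamine handling, 9 were tested, 3 were higher and 4 lower in DG. The glutamine transporters Slc38a5 and Slc38a2 were 0.91 and 0.67 higher, and Slc1a1, a glutamate transporter of neurons, 0.50 higher. Slc38a3, the glutamine transporter of astrocytes, had a difference of -0.24, Got1, an aspartate aminotransferase, one of -0.60, and Slc17a6 and Slc17a7, the vesicular glutamate transporters of neurons, ones of -2.06 and -0.73.

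Treatment left most of these genes without a call. Over the 10 comparisons of AICAR or running with its controls, 3 calls were made among the members, all in LEC and all upward: Agt after 7 days of AICAR, and Glul and S100b after 28 days of running. Of all genes, 0% to 3.63% were called in the DG comparisons. In LEC the share was 14.9% in RUN28 and 0% to 1.39% in the others.

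**Figure D3:**
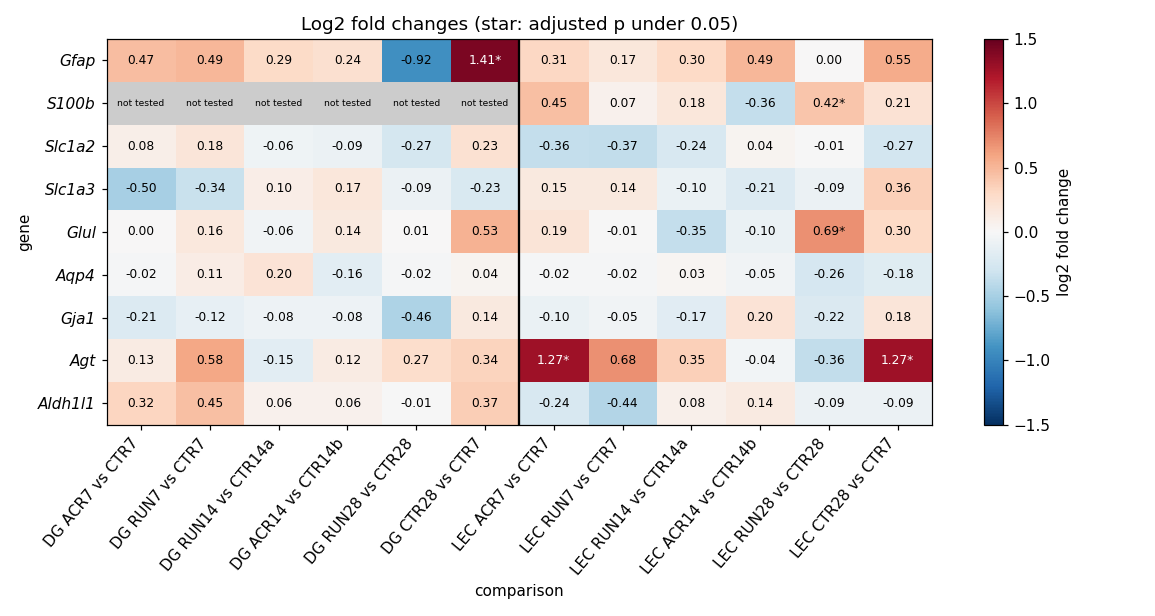
Log2 fold changes (colour and number) of the 9 genes (y axis) in the 5 treatment comparisons and the comparison of CTR28 with CTR7 (x axis) for DG (left) and LEC (right), with a star at a limma adjusted p under 0.05. Stars stand at Agt in LEC ACR7 (1.27) and LEC CTR28 (1.27), Gfap in DG CTR28 (1.41) and Glul (0.69) and S100b (0.42) in LEC RUN28, and S100b was not tested in DG.

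After 7 days of AICAR, Agt was higher in LEC. It was at 8.46, 8.16 and 8.04 on the ACR7 arrays and at 6.74, 6.48 and 7.63 on the CTR7 arrays, the second of which was not detected. All ACR7 arrays lay above all CTR7 arrays, as for 9.43% of LEC genes, and CTR7 was the group with the lowest mean (6.95 ± 0.60, SD, n = 3), the other LEC groups having means of 7.64 to 8.22. The difference was 1.27 (SE 0.25, a fold of 2.41, limma adjusted p = 0.0193), the only call among the 9 genes, against 1.39% of 8545 LEC genes (0.796% higher). The call was lost without CTR7 replicate 1 (1.16, adjusted p = 0.17), CTR7 replicate 2 (1.03, adjusted p = 0.0885), ACR7 replicate 1 (1.15, adjusted p = 0.0942) or ACR7 replicate 2 (1.30, adjusted p = 0.0674). It was also lost when only the ACR7 and CTR7 arrays were fitted (adjusted p = 0.0742, in a range of 0.000395 to 0.17 over 13 alternatives). Without CTR7 replicate 3, the highest control, the difference was 1.61 (adjusted p = 3.95e-04) and Gfap was called as well.

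Neuropeptide genes of the hypothalamus moved with Agt in LEC. Of 6 such genes, 4 were tested, and Hcrt, which was not tested, was detected on 0 LEC arrays. The level of the list, as the mean deviation of its tested genes from the LEC mean, was -1.19, -0.97 and -0.45 in CTR7 and 1.36, 0.43 and 1.05 in ACR7. All 4 had a positive fold change in ACR7 (1.49 to 2.26), and Gal, galanin, passed at 1.49 (limma adjusted p = 0.0282). Of 6 choroid plexus genes 2 were tested in LEC, and Clic6 was called at 1.51 (limma adjusted p = 0.023). The level of that list was -1.01, 0.75 and -0.79 in CTR7 and 1.08, 0.19 and 0.52 in ACR7, with overlap. Over the 28 LEC arrays, after the group means were taken off, Agt and the hypothalamic list correlated at r = 0.73 (permutation p = 0.00062, adjusted 0.0262 over 119 relations) and rho = 0.77 (p = 0.0005, adjusted 0.0476), and at r = 0.72 without the 2 arrays farthest from the median. Their part in the Agt result was not tested. Of the renin-angiotensin genes other than Agt, 2 were tested in LEC, with fold changes of -0.22 each and no call. Ace, which encodes angiotensin-converting enzyme, and the receptor genes Agtr1a, Agtr1b and Agtr2 were detected on 0 LEC arrays.

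**Figure D4:**
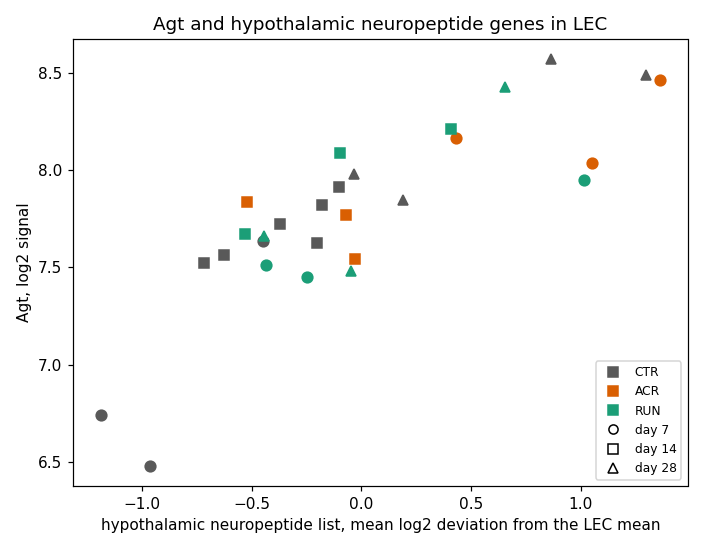
Agt log2 signal (y axis) against the mean deviation of the hypothalamic neuropeptide list from the LEC mean (x axis, log2) on the 28 LEC arrays, coloured by treatment and shaped by day. CTR7 holds the 2 lowest arrays on both axes, and the ACR7 arrays lie above 8 in Agt.

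The other genes at 7 days of AICAR passed in neither tissue. In LEC, S100b was at 6.97, 6.91 and 7.18 in ACR7 and at 6.53, 6.65 and 6.54 in CTR7 (log2 fold change 0.45, limma adjusted p = 0.12), and Slc1a2 was at 10.22, 10.25 and 10.08 against 10.58, 10.47 and 10.59 (-0.36, adjusted p = 0.13). Neither pair of groups overlapped, as for 9.43% of LEC genes above and 9.16% below the controls. In DG, 0 members and 0% of 8757 genes were called, and 14.5% of all genes and 2 members, Slc1a3 and Aldh1l1, had an unadjusted p under 0.05. Slc1a3 was at 13.47, 13.40 and 13.02 in DG ACR7 and at 13.93, 13.77 and 13.70 in CTR7, a fold change of -0.50 (adjusted p = 0.24) that turned to 0.12 under quantile normalization and neqc. Aldh1l1 had 0.32 (adjusted p = 0.26) and Gfap 0.47 (adjusted p = 0.52). The AICAR effect in DG minus that in LEC was -1.13 for Agt (95% interval -1.94 to -0.33, adjusted p = 0.14) and 0.57 for Aldh1l1 (adjusted p = 0.19). S100b was detected on 0 of the 6 DG arrays of ACR7 and CTR7, so its difference of effects rests on background in DG and is not given. None of the 9 genes passed this limma test of the difference, against 0.233% of 9024 genes, and 5 of the 9, S100b among them, had an unadjusted p under 0.05, against 17.2%.

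With 7 days of running, the response of Aldh1l1 differed between the 2 tissues. In DG it was at 8.52, 8.28 and 8.18 in RUN7 and at 7.69, 8.16 and 7.79 in CTR7, with RUN7 above CTR7 on every array, as for 17.6% of DG genes. In LEC it was at 8.40, 8.30 and 8.01 in RUN7 and at 8.66, 8.73 and 8.63 in CTR7, with RUN7 below CTR7 on every array, as for 7.52% of LEC genes. Neither change was called on its own (DG 0.45, SE 0.13, limma adjusted p = 0.0546, with 0 members called against 3.63% of DG genes, and 1 at an unadjusted p under 0.05 against 22.1%; LEC -0.44, SE 0.18, adjusted p = 0.20, with 0 members called against 0.971% of LEC genes, and 3 at an unadjusted p under 0.05 against 17.1%). The DG change was called without CTR7 replicate 2 (0.59, adjusted p = 0.0128) and with every probe tested on its own (adjusted p = 0.0406).

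The difference of these effects, DG minus LEC, was 0.89 for Aldh1l1 (SE 0.23, 95% interval 0.43 to 1.35, limma adjusted p = 0.0295), 1 of 9 members called against 2.5% of 9024 genes. The other well detected probes gave 0.70 (adjusted p = 0.0431 with each probe tested on its own) and 0.73 (adjusted p = 0.0656). The starting levels differed, since Aldh1l1 in CTR7 was 0.80 lower in DG than in LEC, and after running DG was 0.09 higher. The call was lost under quantile normalization (0.77, adjusted p = 0.0599), under neqc (0.90, adjusted p = 0.0621) and in the mice with both tissues (0.73, adjusted p = 0.639). It was lost without DG CTR7 replicate 1 (0.79) or 3 (0.84), DG RUN7 replicate 1 (0.79), LEC CTR7 replicate 1 (0.90) or LEC RUN7 replicate 2 (0.92) or 3 (0.78), at adjusted p from 0.0534 to 0.112. Markers of other cells moved in the same arrays. Of 6 endothelial genes 4 were tested, and Cdh5 was detected on 0 arrays. The mean level of the list was 0.45 to 0.73 in LEC RUN7 and -0.42 to 0.14 in LEC CTR7, with Flt1, a receptor of vascular endothelial growth factor, at 1.31 and Slco1a4, an organic anion transporter, at 0.79, both called. In DG it was 0.14 to 0.25 in RUN7 and -0.47 to 0.25 in CTR7, with Slco1a4 called at 0.63. Of 7 neuron genes 4 were tested, with Snap25 and Nefl detected on 0 arrays, and the list was at -0.23 to -0.14 in DG RUN7 and 0.12 to 0.58 in DG CTR7, without overlap and with 0 genes called. Their part in the Aldh1l1 result was not tested. Slc1a2 had a difference of effects of 0.55 (adjusted p = 0.079) and was called as well without DG CTR7 replicate 2 or LEC RUN7 replicate 1.

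**Figure D5:**
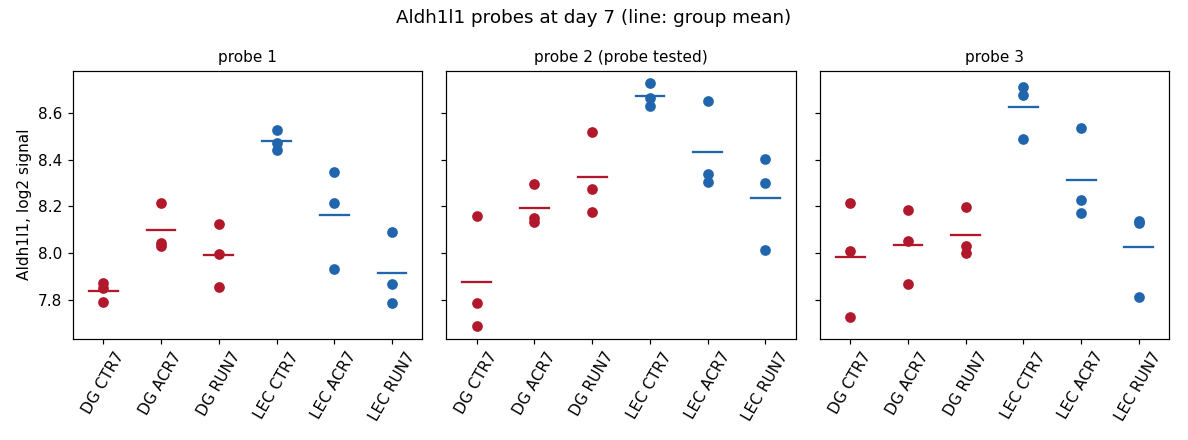
Aldh1l1 log2 signal (y axis) of its 3 well detected probes (panels) on each day 7 array of DG (red) and LEC (blue), by group (x axis), with a line at the group mean. For the tested probe RUN7 lies above CTR7 in DG and below it in LEC.

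Agt and the glutamate transporters at 7 days of running stayed short of a call. In DG, Agt was at 8.08, 8.05 and 7.91 in RUN7 and at 6.93, 8.0 and 7.38 in CTR7 (0.58, limma adjusted p = 0.23), and the groups overlapped. In LEC, Agt had 0.68 (adjusted p = 0.16), which was called without CTR7 replicate 3 (1.02, adjusted p = 0.0128). Slc1a2 was at 10.60, 9.88 and 10.05 in LEC RUN7, where replicate 1 lay among the controls and the other arrays below them. Its fold change was -0.37 (adjusted p = 0.14), and -0.58 without RUN7 replicate 1 (adjusted p = 0.00578), when it was called. Slc1a3 had -0.34 in DG (adjusted p = 0.32), which turned to 0.14 under quantile normalization and neqc. The RUN7 and ACR7 comparisons share the CTR7 arrays of each tissue, so their values are not independent. Set against each other directly, ACR7 and RUN7 differed in 0 of 8 genes in DG (0% of all genes) and 0 of 9 in LEC (0.152% of all genes) by limma's test. At an unadjusted p under 0.05 there were 0 of 8 in DG, against 7.72% of all genes, and 2 of 9 in LEC, against 5.44%. The smallest p in DG belonged to Agt (-0.45, adjusted p = 0.71) and in LEC to S100b (0.38, adjusted p = 0.83) and Agt (0.59, adjusted p = 0.87).

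At 14 days limma called 0 members in either tissue, and 0% of genes in DG RUN14, DG ACR14, LEC RUN14 and LEC ACR14. An unadjusted p under 0.05 was reached by 0 members in DG RUN14 (6.77% of all genes), 0 in DG ACR14 (4.08%), 0 in LEC RUN14 (8.75%) and 2 in LEC ACR14 (14.3%). In DG, RUN14 had 0.20 for Aqp4 (limma adjusted p = 0.81), 0.29 for Gfap and -0.15 for Agt, and ACR14 had -0.16 for Aqp4, 0.17 for Slc1a3 and 0.14 for Glul (adjusted p = 0.999 for each). In LEC ACR14, Gfap was at 7.56, 7.79 and 7.81 against 6.92, 7.48 and 7.30 in CTR14b (0.49, adjusted p = 0.30), and S100b at 6.71, 6.34 and 6.77 against 7.09, 7.01 and 6.81 (-0.36, adjusted p = 0.30). The ACR14 arrays lay above CTR14b for Gfap and below it for S100b, without overlap, as did 9.76% and 7.93% of LEC genes. In LEC RUN14, Slc1a2 had -0.24, Glul -0.35 and Agt 0.35 (adjusted p from 0.59 to 0.70). The DG minus LEC difference of the effects was called for 0 of 9 genes and for 0% of all genes with either treatment, and 0 of the 9 had an unadjusted p under 0.05, against 1.82% of all genes with running and 5.88% with AICAR. The 2 sets of day 14 controls, which had no treatment between them, differed by limma's test in 0 members in DG (0.126% of all genes) and in LEC (0%). At an unadjusted p under 0.05 there were 0 members in DG (17.8% of all genes) and 2 in LEC (7.24%), with Slc1a3 at -0.41 in DG and Slc1a2 at -0.36 and Aqp4 at -0.26 in LEC (CTR14b minus CTR14a).

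After 28 days of running, Glul and S100b were higher in LEC. Glul was at 7.69, 7.58 and 8.29 in RUN28 and at 6.93, 7.02, 7.43 and 7.30 in CTR28. The groups did not overlap, as for 14.2% of LEC genes, and RUN28 replicate 3 was the highest LEC array. The fold change was 0.69 (SE 0.18, a fold of 1.61, limma adjusted p = 0.012), and 0.47 without RUN28 replicate 3, when the call was lost (adjusted p = 0.127, the highest of 15 alternatives, which started at 0.0067). S100b was at 7.28, 7.04 and 7.29 in RUN28 and at 6.88, 6.60, 6.65 and 7.00 in CTR28, without overlap. Its fold change was 0.42 (SE 0.14, a fold of 1.34, adjusted p = 0.0466). That call was lost without any 1 of the 3 RUN28 arrays or of CTR28 replicates 1 to 3 (0.36 to 0.50, adjusted p from 0.0568 to 0.174), with no detection filter (adjusted p = 0.0729) and with every probe on its own (adjusted p = 0.0502). These 2 of 9 calls stand beside 14.9% of LEC genes (7.26% higher).

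Oligodendrocytes are known to express Glul and S100b too, and their markers moved the same way in this comparison. Of 7 oligodendrocyte genes 6 were tested, all 6 had a positive fold change (0.33 to 1.08), and Mog, a myelin protein, was called at 1.08 (limma adjusted p = 0.0193). The mean level of the list was -0.28, -0.26, -0.20 and -0.36 in CTR28 and 0.13, 0.12 and 0.78 in RUN28, with RUN28 replicate 3 the highest. Over the 28 arrays, after the group means were taken off, the list correlated with Glul at r = -0.26 (permutation p = 0.344, adjusted 0.812 over 119 relations; rho = -0.23, p = 0.357) and at r = -0.11 without the 2 arrays farthest from the median. With S100b the list had r = -0.07 (permutation p = 0.762, adjusted 0.93) and rho = -0.07 (p = 0.779), and r = 0.08 without the 2 farthest arrays. The part of oligodendrocyte RNA in either result was not tested. The remaining members were not called in LEC RUN28. Aqp4 was at 10.57, 10.46 and 10.44 in RUN28 and at 10.67, 10.67, 10.87 and 10.76 in CTR28, without overlap, as for 14.2% of genes lower in RUN28 (-0.26, adjusted p = 0.11).

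Further astrocyte genes were lower in LEC RUN28 where they were called. Of the 30 tested, 0 rose and 4 fell, beside 7.26% of all LEC genes higher and 7.67% lower: Bcan, a proteoglycan of the matrix (-0.58), Mertk, a phagocytic receptor (-0.43), Tril (-0.35) and Htra1, a secreted protease (-0.32). Their median was -0.13, against -0.01 for all LEC genes. As the mean deviation from the LEC mean, the list was at -0.004, 0.06, 0.36 and 0.08 in CTR28 and at -0.005, -0.08 and 0.04 in RUN28. CTR28 replicate 3 was thus the highest of these arrays. Of 7 genes that anchor aquaporin-4 and potassium channels at the endfeet, 3 were tested in LEC. Agrn and Dag1, which encode agrin and dystroglycan, fell by 0.66 and 0.44 on the log2 scale. The mean level of this list was 0.01 to 0.23 in CTR28 and -0.32 to -0.22 in RUN28. Of the 16 reactive astrocyte genes 8 were tested, and Hspb1, a small heat shock protein, fell by 0.51 and Stat3, a transcription factor, by 0.28. The mean level of the reactive list was 0.07 to 0.25 in CTR28 and -0.07 to 0.02 in RUN28. In DG RUN28, limma called 0 of 8 members, against 0.251% of genes, and 2 had an unadjusted p under 0.05, against 11.9%. Gfap had -0.92 (limma adjusted p = 0.28), and -0.31 without CTR28 replicate 3. Gja1 was at 12.44, 12.36 and 12.09 in RUN28 against 12.49, 12.49 and 13.31 in CTR28 (-0.46, adjusted p = 0.33), and Slc1a2 at 10.45, 10.42 and 10.49 against 10.66, 10.78 and 10.73 (-0.27, adjusted p = 0.42). The running effect in DG minus that in LEC was called by limma for 0 of 9 members (4.17% of all genes), of which 3 had an unadjusted p under 0.05 (21% of all genes), with Glul at -0.68 (adjusted p = 0.14) and Gfap at -0.93 (adjusted p = 0.16). The third is S100b, detected on 2 of these 6 DG arrays. Glul was detected on 14 of all 26 DG arrays, so the size of its difference is uncertain. Gfap was called there without DG CTR28 replicate 2 (-1.39, adjusted p = 0.0191).

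Between untreated mice of day 28 and day 7, which differ in age, Gfap rose in DG and Agt rose in LEC. Their days of saline injection differ too, if the day 28 mice were injected daily like the others. DG Gfap was at 8.54, 7.96 and 10.08 in CTR28 and at 7.44, 7.64 and 7.27 in CTR7. All CTR28 arrays lay above CTR7, as for 10.4% of DG genes, and replicate 3 stood far above the others. The fold change was 1.41 (SE 0.33, a fold of 2.66, limma adjusted p = 0.00856), 1 of 8 members called against 11.1% of DG genes (4.29% higher). Without CTR28 replicate 3 it was 0.80 and still called (adjusted p = 0.0365), and without CTR7 replicate 3 it was 1.32 and not called (adjusted p = 0.0503). With only these 6 arrays fitted it was not called (adjusted p = 0.165, the highest of 14 alternatives, which started at 0.00251). The oligodendrocyte list was at 0.34, -0.23 and 0.92 in CTR28 and at -0.55, -0.17 and 0.19 in CTR7, with replicate 3 of CTR28 the highest, and its part in the result was not tested. Aldh1l1 (0.37, adjusted p = 0.065) and Glul (0.53, adjusted p = 0.073) were not called, and Aldh1l1 was called as well without CTR7 replicate 2 or CTR28 replicate 2.

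LEC Agt was at 7.85, 8.49, 8.57 and 7.98 in CTR28, above all of the CTR7 arrays given before, as for 10.3% of LEC genes. The fold change was 1.27 (SE 0.23, a fold of 2.41, limma adjusted p = 7.4e-04), 1 of 9 members called against 16.2% of LEC genes (7.36% higher). It was called without any single array (1.03 to 1.61). This comparison shares its CTR7 arrays with that of ACR7, and the hypothalamic list was at 0.19, 1.30, 0.86 and -0.03 in CTR28, with Trh (2.09) and Gal (1.19) called. Its part was not tested here either. LEC Gfap was at 7.49, 8.08, 7.50 and 7.49 in CTR28 against 6.65, 6.84 and 7.77 in CTR7 (0.55, adjusted p = 0.054), and was called under quantile normalization and neqc and without CTR7 replicate 3. Without CTR28 replicate 2, Slc1a3 was called beside Agt. Of the 30 further astrocyte genes 7 rose and 0 fell (median 0.12, against -0.01 for all genes), among them Pla2g7, a lipoprotein-associated phospholipase (0.94), Apoe, the main lipid carrier of the brain (0.76), and Sox9, a transcription factor of astrocytes (0.39). The same CTR28 arrays, with this list highest in replicate 3 (0.36), served the RUN28 comparison, so the rise here and the fall there are not independent. Of the reactive genes 4 of 8 rose, with Vim, the intermediate filament vimentin, at 0.94. In DG 1 of 28 further astrocyte genes rose, Gpr37l1, an orphan receptor (0.52), beside 4.29% of all DG genes higher.

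The members varied little together from array to array. After group means were taken off, the 28 pairs of members in DG had a median r of 0.02 and the 36 pairs in LEC a median r of 0.09. In LEC, Gja1 and Slc1a2 were related (r = 0.52, permutation p = 5e-05, adjusted 0.0032 over 64 pairs, rho = 0.74, adjusted p = 0.00128, n = 28, r = 0.48 without the 2 farthest arrays). Agt and Gfap in LEC had r = 0.73 and rho = 0.69 (permutation p = 0.00549 and 0.00318, adjusted 0.117 and 0.0678) and r = 0.59 without the 2 farthest. Aqp4 followed the microglial list in LEC at r = 0.66 (permutation p = 0.00066, adjusted 0.0262) and rho = 0.70 (p = 0.00208, adjusted 0.0825), and at r = 0.69 without the 2 farthest arrays. In LEC, Slc1a3, one of the brightest probes, was lower where the spread of intensities on an array was larger (r = -0.83, permutation p = 0.00053, adjusted 0.0262, rho = -0.80, adjusted p = 0.0476, r = -0.75 without the 2 farthest). In DG that relation had r = -0.71 (permutation p = 0.00673, adjusted 0.16) and rho = -0.67 (p = 0.00493, adjusted 0.117), and r = -0.59 without the 2 farthest. The values had been divided by this same spread on each array, which by itself lowers a bright probe where the spread is larger. No conclusion about Slc1a3 is therefore drawn from the relation. Between DG and LEC of the same mouse, 0 of the 8 genes tested had a relation that passed (r from -0.32 to 0.35 over 21 mice, permutation p adjusted at 0.633 for each, over 9 relations that include the hypothalamic list).

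The spread within groups differed by gene. The median SD within a group was 0.11 in DG and 0.10 in LEC for Aqp4, and 0.28 and 0.27 for Agt. Gfap had a median SD of 0.27 in DG and a highest of 1.10, in CTR28. The genes outside the list whose deviations most resembled the mean standardised deviation of the members were, in DG, Sat1 (r = 0.81), Elovl5 (0.79), Arf5 (0.77), Pja1 (0.75) and Actr3 (0.71), over 26 arrays and 8749 genes. In LEC they were Timp3 (r = 0.82), Mdk (0.80), Nrarp (0.79), Akr1b10 (0.78) and Acadm (0.77), over 28 arrays and 8536 genes.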

How the data were processed

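The authors deposited intensity values per probe and array, extracted with GenomeStudio 1.6.0 and not normalized between arrays, with a detection p-value for each. The authors also deposited a score, the log intensity standardised within each array. Background subtraction is not given in the sources used here. Here log2 intensities were z-transformed per array, as in the methods, and scaled back by the average SD over all 54 arrays (1.80). Probes with a detection p up to 0.02 throughout 1 group or more were kept, 12658 in DG and 12233 in LEC, and the brightest probe stood for each of 8757 and 8545 genes. Of 25697 probes 23978 had 1 symbol, 0 several and 1719 none. R 4.3.3 with limma 3.58.1 fitted group means per tissue, with p-values adjusted over all genes. DG and LEC were fitted jointly with the mouse as a random block (statmod 1.5.0, correlation -0.06). Correlations used 1e+05 permutations (scipy 1.17.1). Scripts were tested on simulated data. Members called are named, and where none passed up to 3 members of smallest p. Members and gene lists were chosen with earlier results of these data known. Arrays of a group came from separate mice, and their number limits precision.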

Additional observations from a re-analysis of the deposited data

Results flagged for a closer look

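Gfap in LEC CTR28 was at 8.08 in replicate 2 and between 7.49 and 7.50 in the other 3 arrays, a gap of 0.99 of the group's range. It was the only 1 of the 9 genes with an array this far from the rest in this group of 4. Chance passes the limit used in about 1 group in 20, and 9 genes were looked at.

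The effect of 7 days of running on Aldh1l1 differed between the tissues by 0.89, DG minus LEC, by the test of the difference itself (limma adjusted p = 0.0295). The change was called in neither tissue on its own. The difference was called in 11 of 20 alternatives. It was not called under quantile normalization (adjusted p = 0.0599), neqc (0.0621) or in the mice with both tissues (0.639).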

How the results depend on the processing

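The count of members called in DG against LEC, S100b included, was 7 under every alternative but a detection p of 0.01 in every array, which left Glul and S100b untested. Leaving out the DG arrays that stood apart was chosen after seeing the data. Counts elsewhere moved as follows. Quantile normalization and neqc raised LEC CTR28 from 1 to 2 and took the difference of the RUN7 effects from 1 to 0, as did the mice with both tissues. Fitting only the arrays compared took DG CTR28 and LEC ACR7 from 1 to 0. A detection p of 0.01 in every array, under which Agt was not tested, took LEC ACR7 and LEC CTR28 from 1 to 0 and LEC RUN28 from 2 to 1. No detection filter and every probe on its own took LEC RUN28 to 1, and every probe raised DG RUN7 from 0 to 1. The calls over all genes, or over all probes where each was tested on its own, moved too. Over the settings that kept every array of a comparison they ran from 0 to 1859 in DG CTR28 and 1 to 944 in DG RUN7. They ran from 16 to 177 in LEC ACR7, 780 to 1900 in LEC CTR28 and 683 to 1672 in LEC RUN28. For the difference of RUN7 effects they ran from 0 to 338. The selection rule of the methods (z-ratio, p and false discovery rate) gave 0 in DG CTR28, LEC ACR7 and LEC CTR28, 1 in LEC RUN28, LEC RUN14 (Agt) and LEC ACR7 against RUN7 (Agt), and 2 in LEC CTR14b against CTR14a (Aqp4 and Slc1a2). By that rule 571 of the 8757 DG genes passed in DG CTR28. Of the 8545 LEC genes, 391 passed in ACR7, 533 in CTR28, 662 in RUN28 and 372 in RUN14. There were 199 in LEC ACR7 against RUN7 and 370 in LEC CTR14b against CTR14a. Where no value names a cause, it was not tested.

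Leaving out 1 array gave counts of 0 to 2 in DG CTR28, LEC ACR7, LEC RUN28 and the difference of RUN7 effects, 1 to 2 in LEC CTR28, and 0 to 1 in DG RUN7, LEC RUN7 and the difference of RUN28 effects. Over all genes the calls then ran from 318 to 1093 in DG CTR28 and 0 to 688 in DG RUN7. In LEC they ran from 0 to 445 in ACR7, 0 to 411 in RUN7, 313 to 1638 in RUN28 and 505 to 1463 in CTR28. They ran from 7 to 566 for the difference of RUN7 effects and 169 to 618 for that of RUN28 effects.

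Some uncalled values changed sign. Slc1a3 went to 0.12 in DG ACR7, 0.14 in DG RUN7 under both quantile normalization and neqc, and in DG against LEC to 0.040 under the former and 0.039 under the latter. With the other day 14 controls, Gja1 went to -0.065 in LEC ACR14, Glul to 0.032 and Slc1a2 to 0.12 in LEC RUN14, and Slc1a3 to -0.23 in DG ACR14. With 1 array left out, Agt ran from -0.34 to 0.032 in DG RUN14, Glul from -0.016 to 0.30 in DG ACR14, and in DG CTR14b against CTR14a Gja1 from -0.39 to 0.064 and Slc1a3 from -0.89 to 0.078.

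By the labels the groups hold different mice, so the replicate numbers do not pair them. Deviations of same-numbered arrays correlated at r from -0.35 to 0.40. With the replicate number as a block, the call counts of the 12 comparisons that share numbers stayed the same, with Agt at 1.27 in LEC ACR7. Comparisons with CTR14b share no numbers and could not be fitted. The slide as a block was not run, as no slide is named. S100b in DG, and Glul on 12 of 26 DG arrays, were not above background.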
